A study of Mus musculus with 9 samples.

Results

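Bcl11b encodes a zinc-finger transcription factor that T-cell progenitors switch on as they commit to the T lineage and that B-lineage cells keep silent. Its activation in thymocytes depends on a far enhancer on the other side of a gene desert downstream of the gene, about 850 kb from the promoter by background knowledge. CTCF is a DNA-binding protein and Rad21 a subunit of cohesin, the ring-shaped complex that extrudes chromatin loops and is often halted at CTCF sites.

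CTCF and Rad21 peaks were examined over the Bcl11b gene (ENSMUSG00000048251.9, minus strand, mm9 chr12:109148613-109241812) and 1.2 Mb on either side of it. The 5 peak lists held 307 peaks in this window, which merged into 178 sites of 83461 in the whole genome. Peaks with 1 bp or more in common were merged. The window was divided into the gene body of 93.2 kb, the 1.2 Mb beyond its 3′ end (the downstream desert, at lower coordinates) and the 1.2 Mb before its start (the upstream side). Distances below run from the annotated start of Bcl11b to the middle of a site.

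The libraries were 1 for each antibody and cell type, all from RAG-deficient C57BL/6 mice, so no spread between animals is known and no test between cell types was run. CTCF was profiled in pre-B cells, which came from the bone marrow of RAG-/- mice with a rearranged IgM (µ) transgene, and in RAG1-/- pro-B cells after 7 days in medium with IL7 from J558 cells. Rad21 was profiled in the same pre-B cells, in DN (CD4-CD8-) thymocytes of Rag1-/- mice, and in DP (CD4+CD8+) thymocytes of Rag1-/- mice carrying a rearranged TCRb transgene. Bone marrow came from mice of 6 to 14 weeks and thymocytes from mice of 4 to 8 weeks. Whether animals were pooled is not given in the sources used here, and CTCF in thymocytes was not analysed here. Peak lists hold no expression values, so the labelled cell types were not checked against marker genes. Fewer cells bound at a site and less binding per cell cannot be told apart in such libraries.

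The lists held 42250 (CTCF pre-B), 71080 (CTCF IL7-cultured pro-B), 30488 (Rad21 pre-B), 9701 (Rad21 DN) and 36743 (Rad21 DP) peaks, and the number of reads behind them is unknown. The lowest score kept was 86.45 in the DN list and between 50 and 66.97 in the others, and a site listed without a peak was not called there but may still be bound. Within-list rank, the percent of the same list with a lower score, was used to describe the strength of a peak. Intervals on shares are exact Clopper-Pearson intervals at 95%, and they cover counting error only.

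CTCF sites have a direction, which can be read from their letters, so matches at sites of the desert, the gene body and the upstream side are printed here. Each line gives 32 bases of mm9, 5′ to 3′ on the strand of the match, with the 12 bases matched to the study's de novo CTCF consensus in capitals. The consensus was allowed at most 2 mismatches. The direction of a site is that of the usual forward CTCF motif, which is the reverse complement of this consensus, so a plus-strand match points to lower coordinates.
Site 917 kb downstream, minus strand: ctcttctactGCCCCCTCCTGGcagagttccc
Site 26.4 kb downstream, plus strand: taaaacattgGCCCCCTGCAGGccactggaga
Site 5.28 kb downstream, plus strand: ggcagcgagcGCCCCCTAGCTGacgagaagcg
Site 203 kb upstream, minus strand: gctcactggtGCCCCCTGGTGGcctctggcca
Site 290 kb upstream, plus strand: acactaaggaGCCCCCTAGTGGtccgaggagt
Site 654 kb upstream, plus strand: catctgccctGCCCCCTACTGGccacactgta
Site 754 kb upstream, plus strand: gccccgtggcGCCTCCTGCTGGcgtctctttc
Site 900 kb upstream, minus strand: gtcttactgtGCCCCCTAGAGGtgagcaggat
The matches at 203 kb and 290 kb upstream had 0 mismatches, those at 654 kb and 900 kb had 1, and the rest had 2. The match in the Bcl11b intron at 5.28 kb pointed into the desert, and the match at 917 kb, inside the desert, pointed toward the gene. In the desert 11 DP Rad21 peaks held a match, each with 2 mismatches. Of these, 4 pointed to lower coordinates, 6 to higher coordinates and 1 could not be decided, so neither direction was general. Only the match at 917 kb lay in a CTCF peak of the lists used, so the others are sequence matches without a CTCF call.

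The downstream desert was occupied by Rad21 in DP thymocytes and was empty of peaks in pre-B cells. The DP list had 79 peaks there, or 65.8 per Mb against 13.9 per Mb over chromosomes 1 to 19 and X, which is 4.73 times the average. Both pre-B lists had 0 peaks in the same 1.2 Mb, where the average density would be 16.0 per Mb for CTCF and 11.6 per Mb for Rad21. The DN list had 3 peaks (2.50 per Mb against 3.68 per Mb) and the CTCF list of IL7-cultured pro-B cells had 3 (2.50 per Mb against 26.9 per Mb). The DP peaks together covered 58.6 kb and had a median width of 638 bp.

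**Figure D1:**
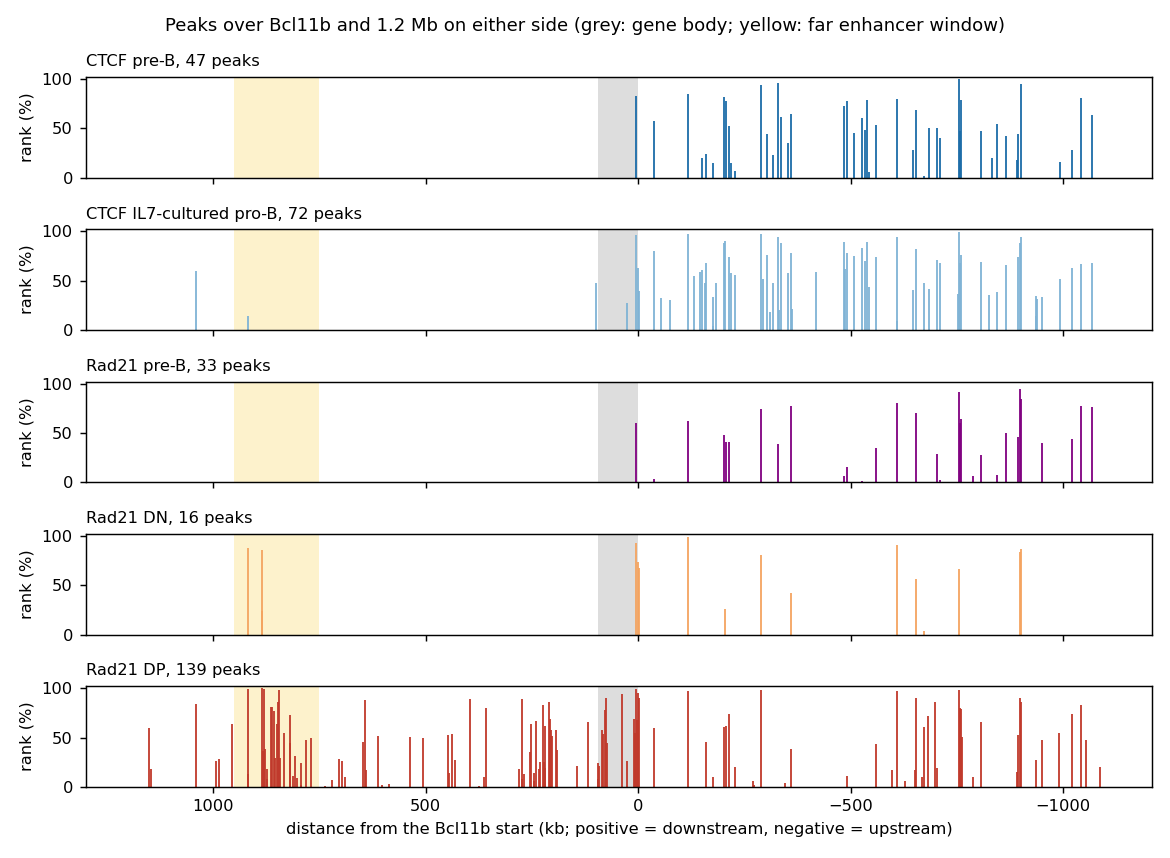
Peaks of each list over Bcl11b and 1.2 Mb on either side, by distance from the start of Bcl11b in kb (positive is downstream). The height of each line is the within-list rank in percent, grey marks the gene body and yellow the window from 750 to 950 kb downstream. The left side holds 79 DP peaks and no peak of either pre-B list.

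The stretch without pre-B peaks ran beyond the window. From a peak inside Vrk1, which encodes a nuclear kinase, to the intronic site of Bcl11b, no CTCF peak of pre-B cells was called over 1.94 Mb (from chr12:107293800-107294548 to chr12:109236916-109237437). Of 42229 intervals between neighbouring CTCF peaks of that list, 108 were longer and the median was 17.3 kb, with gaps in the assembly not left out. The same 1.94 Mb lacked Rad21 peaks of pre-B cells, and the DP list had 101 peaks inside it. The longest stretch of the window without a CTCF peak in IL7-cultured pro-B cells was 0.819 Mb, and 236 of 71052 intervals of that list were longer. The longest without a DN peak was 0.879 Mb. Of 9681 intervals of the DN list, 582 were longer and the median was 90.9 kb.

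**Figure D2:**
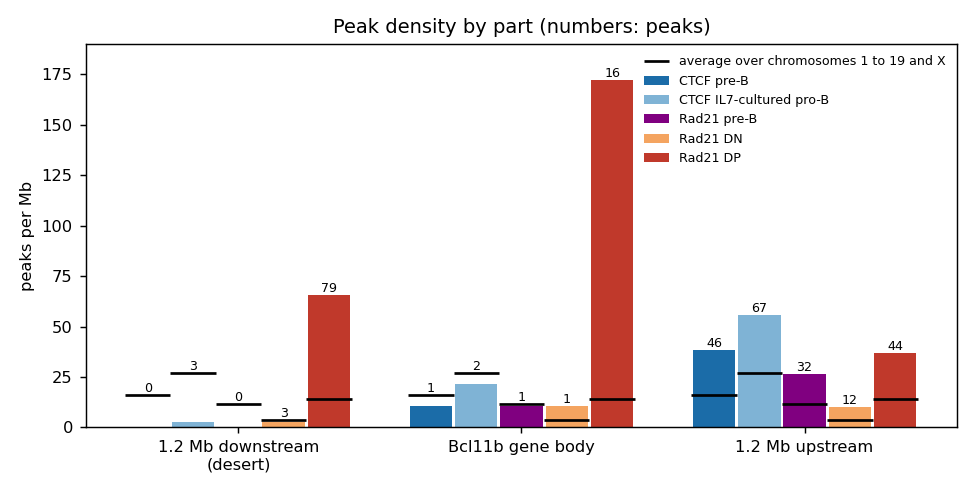
Peaks per Mb in the downstream desert, the gene body and the upstream side for each list, with the number of peaks written over each bar and the average over chromosomes 1 to 19 and X as a black line. The DP density was 65.8 per Mb downstream and 172 per Mb in the gene body, and the pre-B lists reached their average only on the upstream side.

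DP peaks were not spread evenly along the desert. They gathered in groups at 200 to 300 kb (19 peaks) and at 800 to 900 kb (21 peaks), while the other intervals of 100 kb between 100 kb and 1200 kb held 1 to 7. The first 100 kb downstream of the start, which is almost wholly gene body, held 18. The group at 200 to 300 kb lay over 4930465M20Rik and Gm15208, annotated transcripts of the desert, and over the sequence next to them. Its highest peak, in an intron of 4930465M20Rik at 274 kb, ranked above 88.9% of the DP list, and the peak at the start of Gm15208 (220 kb) above 61.6%. Neighbouring DP peaks of the desert were 6.01 kb apart in the median, and the widest gap between them was 107 kb, from 1040 to 1150 kb.

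Most DP peaks of the desert were of middling or low rank, and the few strongest stood close together. The median rank was 36.1%, with a range of 0.659% to 99.9%, and 47 of 79 peaks lay in the lower part of the list, under the rank of 50%. Only 4 of the 79 ranked above 90%, and all 4 lay between 844 and 917 kb downstream. The 3 highest DP peaks of the whole window were among these 4.

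The far enhancer window, 750 to 950 kb downstream, held 27 sites. All 27 were called in DP thymocytes, 2 also in DN thymocytes, 1 in the IL7-cultured pro-B CTCF list, and 0 in either pre-B list. The window was described through the DP list, since 25 of the 27 sites had no other peak. All 27 were thus Rad21 sites of thymocytes and not of pre-B cells, a class that held 34.8% of Rad21 sites over the genome. The strongest was an intergenic DP peak at 885 kb (chr12:108355514-108357939), which was 41st from the top of the DP list at a rank of 99.9%. Inside it the DN list had 2 peaks, ranked 85.9% and 23.5%.
The site at 917 kb (chr12:108324029-108325141), in an intron of the annotated transcript Gm16086, ranked 99.7% in DP and 87.4% in DN thymocytes. It was the one site of this window with a CTCF peak, in IL7-cultured pro-B cells, where it ranked 13.7%. This site was therefore near the top of the DP list, lower in the DN list and near the bottom of the CTCF list. Its CTCF match had 2 mismatches.

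Next to these lay a DP peak at 880 kb (chr12:108361315-108363183), ranked 99.4%, and a DP peak at 844 kb (chr12:108397149-108399200), ranked 98.0%, which covered the start of the annotated transcript Gm16084. The DN list had no peak at either. A second cluster of DP peaks without DN peaks lay at 847 kb (86.1%), 849 kb (63.8%), 855 kb (29.2%), 857 kb (76.7%), 862 kb (80.9%) and 864 kb (81.3%), and a weak one on the other side of the 844 kb peak at 842 kb (29.6%). Over the window, 23 DP peaks ranked under 90%, and 16 ranked under 50%, of which the lowest was at 1.56% (792 kb). The remaining peaks thus made a field of weaker sites around 4 strong ones, and those from 768 to 832 kb, toward Bcl11b, did not exceed 73.3%.

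**Figure D3:**
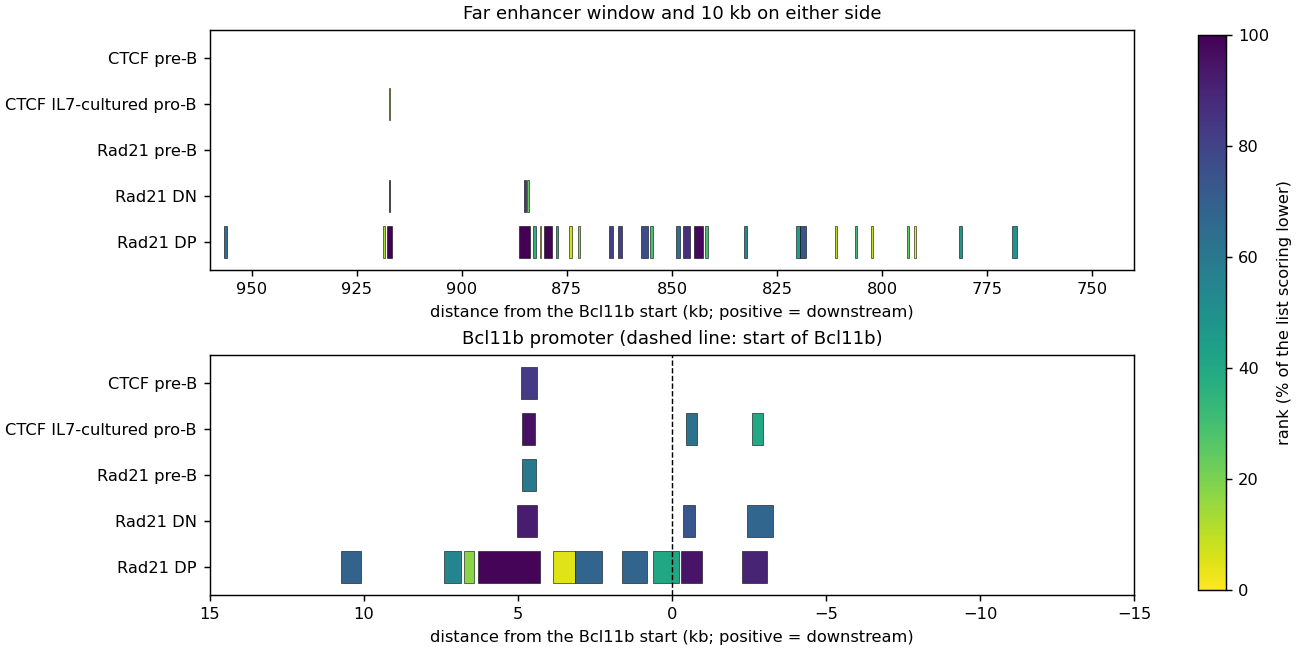
Extent of each peak, by list, in the far enhancer window (top) and around the Bcl11b start (bottom, dashed line), by distance from the start in kb, with colour for the within-list rank in percent. The far window holds peaks of DP and DN thymocytes and 1 CTCF peak of IL7-cultured pro-B cells at 917 kb, while the intronic site near the promoter has a peak in every list.

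The central 300 bases of 3 of the strongest far sites are shown, read on the plus strand of mm9, because the desert's DP peaks differed from each other in what sequence they carried. The deposited lists give no summits, so the middle of each peak was used. Capitals mark the CTCF consensus match (here on the minus strand) at 917 kb and an E-protein motif at 880 kb.
917 kb, chr12:108324436-108324735: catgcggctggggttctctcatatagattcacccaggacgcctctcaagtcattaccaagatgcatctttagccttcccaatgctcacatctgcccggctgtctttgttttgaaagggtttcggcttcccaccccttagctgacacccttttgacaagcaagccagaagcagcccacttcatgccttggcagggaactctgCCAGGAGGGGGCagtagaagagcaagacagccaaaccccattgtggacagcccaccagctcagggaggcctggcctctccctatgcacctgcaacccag
885 kb, chr12:108356577-108356876: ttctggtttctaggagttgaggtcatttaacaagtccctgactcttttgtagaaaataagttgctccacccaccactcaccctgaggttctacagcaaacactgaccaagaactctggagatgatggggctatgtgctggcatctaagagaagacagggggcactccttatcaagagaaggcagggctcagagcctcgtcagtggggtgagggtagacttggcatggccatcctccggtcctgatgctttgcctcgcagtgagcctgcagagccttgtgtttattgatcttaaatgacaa
880 kb, chr12:108362100-108362399: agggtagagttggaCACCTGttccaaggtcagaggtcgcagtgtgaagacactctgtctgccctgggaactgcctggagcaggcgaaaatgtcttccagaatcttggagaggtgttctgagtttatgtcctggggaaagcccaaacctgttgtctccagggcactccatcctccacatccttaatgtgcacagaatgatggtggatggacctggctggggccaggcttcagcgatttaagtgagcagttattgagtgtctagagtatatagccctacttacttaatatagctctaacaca
The window at 917 kb also held 1 E-protein motif, left in lower case, and the window at 885 kb held neither a consensus match nor any short motif searched.

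Few DP peaks of the desert coincided with CTCF peaks of B-lineage cells or held the CTCF consensus. Over the whole DP list, 69.2% of peaks overlapped a CTCF peak of either B-lineage list, and 2 of 79 did so in the desert (2.53%). The B-lineage lists had 0 (pre-B) and 3 (IL7) CTCF peaks in the desert, so few of the 79 could overlap one. In the gene body 1 of 16 did, and on the upstream side 31 of 44 (70.5%, interval 54.8 to 83.2%). The consensus was found in 11 of 79 desert peaks (13.9%, interval 7.16 to 23.5%) beside 37.5% of all DP peaks. Among peaks of 400 to 800 bp the values were 7 of 49 (14.3%) beside 38.2%, so the low share was also seen at matched widths.

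Short motifs of T-cell transcription factors were counted on both strands in the central 300 bases of the same 79 peaks. The E-protein motifs CAGGTG and CAGCTG, bound by factors such as E2A and HEB, were present in 46 of 79 (58.2%, interval 46.6 to 69.2%) beside 43.5% of all DP peaks. Among DP peaks without B-lineage CTCF the shares were 57.1% (44 of 77, interval 45.4 to 68.4%) beside 49.7%, a smaller distance that lay within the interval. The RUNX motif TGTGGT was found in 24.1% beside 24.0%, the TCF7/LEF1 motif CTTTGA in 21.5% beside 17.7%, and the GATA motif AGATAA in 11.4% beside 11.0%. For these 3 the background share lay inside the interval of the desert peaks.

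Near the promoter, Rad21 in DP thymocytes was again the most extensive signal. All 9 sites within 10 kb of the start of Bcl11b were called in DP thymocytes, 3 in DN thymocytes, 3 in the CTCF list of IL7-cultured pro-B cells and 1 in each pre-B list. With lists of equal length (9701 peaks for Rad21), 3 promoter sites were left. Of the full 9 sites, 6 had a DP peak only. Over the genome 33.6% of Rad21 sites were called only in DP thymocytes, with or without CTCF. For the narrower distance of 2 kb from a start, 32.5% of all protein-coding genes had a DP peak, 4.39% a DN peak, 40.0% a CTCF peak in IL7-cultured pro-B cells, and 20.3% (Rad21) and 27.1% (CTCF) a peak in pre-B cells, and Bcl11b had one in the first 3 of these lists. The one site called in all 5 lists was in an intron, 5.28 kb downstream of the start (chr12:109235524-109237539). It ranked 99.2% in DP and 92.4% in DN thymocytes and 59.7% in pre-B cells for Rad21, and 82.8% in pre-B and 96.0% in IL7-cultured pro-B cells for CTCF. This was the only peak of the gene in either pre-B list and the only DN peak inside the gene.

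Just upstream of the start were 2 sites that were called in both thymocyte lists and in IL7-cultured pro-B cells, but in neither pre-B list. The site at 0.635 kb upstream (chr12:109242119-109242775) ranked 94.7% in DP, 73.3% in DN and 62.6% in the CTCF list of IL7-cultured pro-B cells. The site at 2.78 kb upstream (chr12:109244093-109245083) ranked 90.0%, 67.1% and 39.9% in the same lists. Neither held the consensus at 2 mismatches. The peak covering the start itself was called only in DP thymocytes and ranked 40.4%. Between the start and the intronic site the DP list had further peaks at 1.21 kb (67.8%), 2.71 kb (67.7%) and 3.50 kb (4.74%), and beyond that site at 6.59 kb (17.7%) and 7.12 kb (54.3%).

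Over the whole gene body the DP list had 16 peaks, or 172 per Mb, which is 12.3 times the genome average, and their median rank was 55.7%. With the Rad21 lists cut to their 9701 highest peaks each, 4 DP peaks and 0 pre-B Rad21 peaks were left in the gene. Apart from the intronic site, the strongest DP peaks were intronic, at 38.9 kb (94.2%) and 75.5 kb (90.5%), without a peak in any other list. A group of 5 intronic DP peaks lay between 72.6 and 84.5 kb and ranked from 44.4% to 90.5%. The remaining peaks at 10.4 kb (68.7%) and 25.3 kb (26.1%) were intronic, and the one at 91.6 kb (20.7%) lay over an exon. The CTCF list of IL7-cultured pro-B cells had 1 further peak at 26.4 kb, ranked 27.3%, where no Rad21 peak was called.
Among 4081 protein-coding genes within a factor of 2 of its length, the median number of DP peaks was 1, and 18 had as many as Bcl11b or more.

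Set against pre-B cells, the Rad21 sites of the locus were mostly sites of thymocytes. Of 46478 Rad21 sites merged over the genome, 34.8% were called in DN or DP thymocytes and not in pre-B cells, while 20.6% were called only in pre-B cells. In the Bcl11b window the thymocyte sites made up 114 of 147 (77.6%, interval 69.9 to 84.0%) and the pre-B sites 8 of 147 (5.44%). In the desert all 79 Rad21 sites were thymocyte sites, 77 called only in DP (33.6% of all Rad21 sites) and 2 in DN and DP (0.940% of all). Seen from the DP list, 56.3% of all peaks overlapped a Rad21 peak of pre-B cells. In the desert 0 of 79 did, which was fixed by the 0 Rad21 peaks of pre-B cells there. In the gene body 15 of 16 were thymocyte sites.

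The upstream side was close to the genome in this respect. There 20 of 52 sites (38.5%, interval 25.3 to 53.0%) were called in thymocytes and not in pre-B cells, 24 (46.2%) in pre-B cells and a thymocyte stage beside 44.6% of the genome, and 8 (15.4%) only in pre-B cells. The interval of the upstream share held the genome share of 34.8%, while the desert share was fixed by the absence of pre-B Rad21 peaks there.

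**Figure D4:**
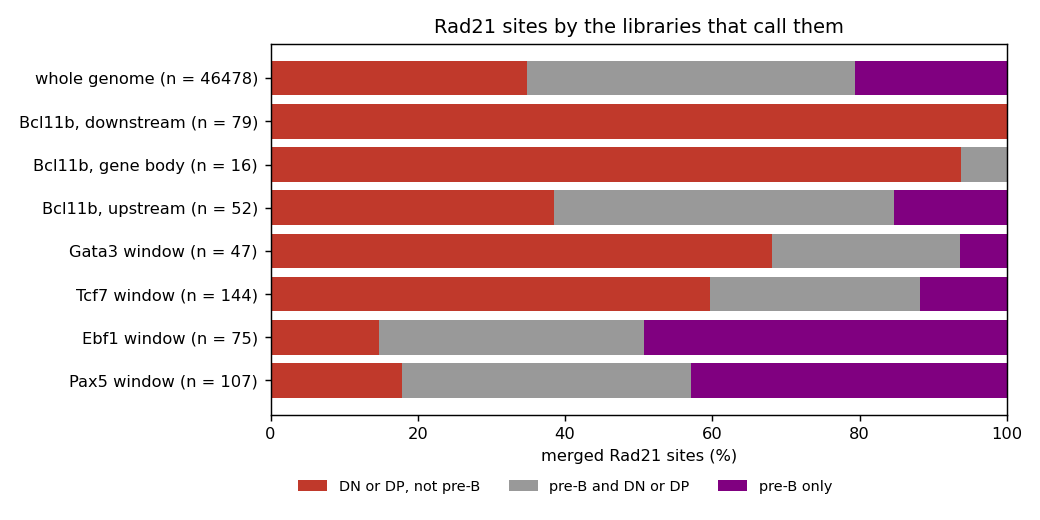
Merged Rad21 sites, in percent, by whether they were called in DN or DP thymocytes and not pre-B cells (red), in pre-B cells and a thymocyte stage (grey) or only in pre-B cells (purple), with the number of sites as n. The desert bar is red throughout (79 of 79), while the upstream bar is near that of the whole genome.

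The same window rule was applied to other genes of either lineage. Thymocyte sites were 32 of 47 (68.1%) around Gata3 and 86 of 144 (59.7%) around Tcf7, transcription factor genes of the T lineage. They were 11 of 75 (14.7%) around Ebf1 and 19 of 107 (17.8%) around Pax5, which specify the B lineage. The Bcl11b window had the highest share of these 5. The Gata3 interval of 52.9 to 80.9% held the Bcl11b share of 77.6%. The Bcl11b interval of 69.9 to 84.0% did not hold the Gata3 share of 68.1%. These 2 intervals overlapped, and the difference between the windows was not tested.

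When the 3 Rad21 lists were limited to their 9701 highest peaks each, the desert still had 15 DP peaks, 3 DN peaks and 0 pre-B peaks, and 8 sites of the far window were left. With the DP list limited to the length of the pre-B list, a setting added after the data had been seen, 59 desert sites remained.

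DN and DP thymocytes differed in how much of the locus was called, while every DN peak was also a DP peak. Over the genome 94.5% of DN peaks overlapped a DP peak, and here 16 of 16 did (interval 79.4 to 100%). In the other direction 24.9% of DP peaks overlapped a DN peak over the genome, beside 15 of 139 in the window (10.8%, interval 6.17 to 17.2%) and 2 of 79 in the desert (2.53%). On the upstream side it was 12 of 44 (27.3%). The DN list was the shortest and ended at the highest score, and its part in this difference was not tested beyond the equal-length setting.

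The upstream side, where the neighbouring genes lie, carried most of the CTCF of the locus. Pre-B cells had 46 CTCF peaks there (38.3 per Mb, 2.39 times the average) and IL7-cultured pro-B cells 67 (55.8 per Mb, 2.07 times). Rad21 had 32 peaks in pre-B cells (2.31 times the average), 12 in DN (2.72 times) and 44 in DP thymocytes (2.63 times). All but 1 of the 9 sites called in all 5 lists lay on this side.
The site at 754 kb upstream, intergenic, had the highest median rank of these (98.4%), and its CTCF peak in pre-B cells was 14th from the top of the list. In an intron of Setd3, a histidine methyltransferase gene, the site at 118 kb upstream (chr12:109359307-109359883) ranked 98.9% in DN and 97.0% in DP thymocytes and 61.8% in pre-B cells for Rad21, and 84.4% in pre-B and 97.5% in IL7-cultured pro-B cells for CTCF. The other sites of this kind lay at 203 kb in an intron of Ccdc85c (median rank 60.3%), 290 kb (93.9%), 360 kb (64.5%), 610 kb (90.8%) and 654 kb (70.2%), both of the latter in introns of Evl, and 900 kb in an intron of Wdr25 (94.2%).
The Setd3 site held the highest DN peak of the window, and it was the first site upstream of the gene that all 5 lists shared. The DN peak at 610 kb (90.8%) was the third of its list here, after that in the Bcl11b intron. The second CTCF peak of pre-B cells, at 329 kb, ranked 95.8%, and the highest Rad21 peaks of pre-B cells were at 899 kb (94.5%), 754 kb (91.4%) and 900 kb (84.7%).

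Upstream sites with Rad21 called in thymocytes and not in pre-B cells were led by the 2 sites next to the promoter, followed by DP peaks at the start of Degs2, a sphingolipid desaturase gene (698 kb, 86.0%), at 683 kb over Degs2 and Evl (71.9%) and at 673 kb in an exon of Evl (60.6%). The sites at 683 and 673 kb did have CTCF peaks in pre-B cells, ranked 50.6% and 2.08%, and the one at 673 kb also had a DN peak ranked 3.90%. All 8 sites with Rad21 called only in pre-B cells also had CTCF peaks in both B-lineage lists. Of all pre-B Rad21 peaks, shared with thymocytes or not, 88.1% had a pre-B CTCF peak. Of pre-B CTCF peaks, 96.0% had an IL7 peak. The share among sites with Rad21 only in pre-B cells was not computed over the genome. The 8 sites lay at 304, 330, 484, 526, 710, 845, 866 and 1070 kb upstream, and their Rad21 ranks ran from 0.380% to 76.5%. Those ranks were low at most of them, with 6 of the 8 under 40%.

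CTCF and Rad21 of pre-B cells were paired around Bcl11b to about the same extent as elsewhere. Over the genome 63.5% of CTCF peaks had a Rad21 peak, beside 29 of 47 in the window (61.7%, interval 46.4 to 75.5%). In reverse 88.1% of Rad21 peaks had a CTCF peak, beside 30 of 33 (90.9%). The 2 CTCF lists also overlapped as over the genome, with 45 of 47 pre-B peaks found in IL7-cultured pro-B cells (95.7% beside 96.0%) and 46 of 72 in the reverse direction (63.9% beside 58.6%). Rad21 peaks of DP thymocytes lay on 27 of 47 pre-B CTCF peaks (57.4%, interval 42.2 to 71.7%) beside 52.0% over the genome.

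The 3 CTCF peaks of the desert were all from IL7-cultured pro-B cells. Besides the one at 917 kb they lay at 1040 kb, where the CTCF rank was 59.4% and a DP Rad21 peak ranked 83.8%, and at 98.1 kb, just beyond the 3′ end of Bcl11b, where the CTCF rank was 47.7% and no Rad21 peak was called. Neither of these 2 held the consensus at 2 mismatches.
Consensus matches were found in 23 of 47 CTCF peaks of pre-B cells (48.9% beside 48.3% of the list) and in 32 of 72 of IL7-cultured pro-B cells (44.4% beside 39.0%). Upstream, 12 of 22 matched pre-B peaks pointed to lower coordinates, toward Bcl11b, and 10 away from it, so neither direction prevailed. In IL7-cultured pro-B cells the numbers were 16 and 13.

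At the starts of the other genes of the window, calls were near the background in each list. Of 15 neighbouring protein-coding genes, 6 had a DP peak within 2 kb of their start (32.5% of all genes did), 0 a DN peak (4.39%), 5 a Rad21 peak in pre-B cells (20.3%), and 6 a CTCF peak in pre-B cells (27.1%). The IL7-cultured pro-B CTCF list had a peak at 6 starts (40.0%). The desert held the start of a single other protein-coding gene, 3110018I06Rik, at 515 kb, and no list had a peak within 2 kb of it.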

How the data were processed

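ChIP-seq peaks of CTCF and Rad21 were taken from 5 libraries, 1 per condition. The authors' methods give removal of duplicates and of adapter sequence, alignment to mm9 by Bowtie with up to 3 places per read, and MACS calls of confident peaks against input. The submitters' processing notes name Bowtie 0.12.9 and MACS 1.4.2. Per the labels the CTCF and Rad21 libraries of pre-B cells share 1 input. The deposited files give the position of each peak and a score, which the authors' MACS run derived from its p-value. The score grows with depth, and strong peaks are tied at 3100, so peaks were ranked and filtered by it only inside their own list.

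The window was the Bcl11b gene body of the GENCODE annotation on mm9 with 1.2 Mb on either side. Peaks with at least 1 bp of overlap were merged or counted as shared. The far window (750 to 950 kb) was set around the known enhancer from background knowledge. The members, lists and settings were chosen with earlier results of these data known. Named were all sites of the gene body, promoter and far window or their ranges, the highest sites called on 1 side of the thymocyte and pre-B comparison, the 3 highest peaks of each list, and the sites called in all 5 lists. The de novo CTCF consensus of the study's motif table was searched on both strands. Site merging and motif search were tested on simulated data. Alternatives were a score of at least 100, lists of equal length, counting by midpoint, 50% overlap, flanks of 1 Mb, a far window of 600 to 1100 kb, a promoter window of 20 kb, and 1 or 3 mismatches. Python 3.11.15, numpy 2.4.6, scipy 1.17.1 and matplotlib 3.10.9 were used.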

Additional observations from a re-analysis of the deposited data

How the results depend on the processing

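Of 154 values computed for 35 results under alternatives, 129 stayed within 1.5 times the count or within the interval of the share, 25 moved and 0 reversed. With peaks scored below 100 left out, DP peaks fell to 41 in the desert, 29 upstream and 82 in the window, thymocyte sites of the desert to 41, Rad21 sites of the window to 86 and far sites to 16. With lists of equal length (9701 peaks for Rad21, 42250 for CTCF and 30488 for the pre-B pair), DP peaks were 15 in the desert, 4 in the gene body, 14 upstream and 33 in the window, and Rad21 peaks of pre-B cells were 0 in the gene body, 9 upstream and 9 in the window. In that setting 15 thymocyte sites were left in the desert, 37 Rad21 sites in the window, 8 far sites, 3 promoter sites and 1 CTCF peak of IL7-cultured pro-B cells in the gene body. The share of IL7 peaks with a pre-B CTCF peak became 81.1% and that of pre-B CTCF peaks with Rad21 80.0%. With peaks scored below 100 left out these shares were 63.1% and 52.4%, and the cause of this difference was not tested. A far window of 600 to 1100 kb held 41 sites. The consensus share was 27.7% (pre-B) and 19.4% (IL7) with 1 mismatch, and 91.5% and 84.7% with 3. The desert count of pre-B peaks was 0 in every setting run. With the DP list as long as the pre-B list, an alternative added after the data had been seen, the window held 118 Rad21 sites and the far window 21, and neither that nor leaving out the DN list moved a value. No paired analysis was possible because each condition has 1 library. Depth is unknown, so weak sites may be missing from any list.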

Other observations

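The number of Rad21 sites called in DP thymocytes and not in pre-B cells over the 1.2 Mb downstream of a gene was 79 for Bcl11b and 9 in the median of 22350 protein-coding genes. Among the other genes, 19 had at least as many. Of these, 17 lay on chromosome 14 around the TCRα/δ locus, and the other 2, Setd3 and Ccdc85c, are upstream neighbours of Bcl11b whose downstream windows take in much of the same desert. Windows of neighbouring genes overlap, so these genes are not independent.

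Of the 4081 genes within a factor of 2 of the length of Bcl11b, those with the most similar counts of gene body peaks over the 5 lists included Lrig1, Lrrc1, Mier1 and Capn3. The measure was the distance between log2(count + 1) values over the 5 libraries. Bcl11b had 1 CTCF peak in pre-B and 2 in IL7-cultured pro-B cells, and 1, 1 and 16 Rad21 peaks in pre-B, DN and DP cells. Lrig1, an ErbB receptor regulator, was closest at a distance of 0.39 and differed only in the DP count, which was 12. Lrrc1 and Mier1 were at 0.77, each with 9 DP peaks.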
